A study of Mus musculus with 6 samples.

Results

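The cytochrome P450 genes of mouse colon with tumors were followed on 6 one-color Agilent arrays, 3 from mice given RG@M-γ-CD and 3 from mice given PBS. The members are all gene probes whose gene name begins with Cyp and a digit, with Cyp51 left out, which gives 135 of the 56605 gene probes and 101 genes in 16 P450 families. All 6 animals were C57BL/6 mice bought at 6 to 8 weeks of age, with colitis-associated colon tumors raised by AOM (azoxymethane, a carcinogen, 10 μg/g) and 2% DSS (dextran sodium sulfate, which inflames the colon). RG@M-γ-CD, regorafenib in particles of mannose-modified γ-cyclodextrin, was given by mouth at 30 μg/g of the complex (10 μg/g of the drug), and both groups had 21 days of treatment and 14 days of observation. The RNA came from whole pieces of colon with tumors, a mixture of cell types in which fewer cells of a type and less RNA per cell cannot be told apart. The labels do not say how the numbered replicates relate to litters or cages, so p-values measure the spread between these arrays.

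Cytochrome P450 enzymes are heme proteins that insert oxygen into their substrates. Most sit in the endoplasmic reticulum and receive electrons from P450 oxidoreductase, and a few work in mitochondria with ferredoxin. Families 1 to 4 handle drugs, pollutants, fatty acids and eicosanoids, and the higher families make or break down bile acids, steroid hormones, retinoic acid and vitamin D. In the intestine they form a first barrier against swallowed compounds, and many of them lie in clusters of close copies.

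Array quality was similar throughout, with 49.6% to 55.2% of gene probes well above background, which means that the scanner software marked at least 0.5 of the probe's spots as such. RG@M-γ-CD replicate 1 stood apart in its cell-type markers. The summed linear level of 5 colonocyte markers was 49.8 there, against 153 to 394 on the other RG@M-γ-CD arrays and 79.6 to 255 on the PBS arrays. That sum is mostly Guca2a. Aqp8, a water channel of surface colonocytes, read -0.12 on that array (log2 level) and 3.06 to 4.57 on the other 5. The summed level of 4 smooth muscle markers was 37.4 in RG@M-γ-CD replicate 1, 261 and 331 in replicates 2 and 3, and 71.2 to 94.4 in PBS. The 7 general colon epithelium markers were all measured, and their summed level ran from 710 to 870 in RG@M-γ-CD and from 664 to 964 in PBS. In the clustering of arrays drawn for the changed genes of the study, RG@M-γ-CD replicates 2 and 3 stand with PBS replicate 1, and RG@M-γ-CD replicate 1 stands with PBS replicates 2 and 3. The labels were kept here. Whether the labels of RG@M-γ-CD replicate 1 and PBS replicate 1 were exchanged was not tested, and values without RG@M-γ-CD replicate 1 and in that other arrangement are given after the main ones. Log2 levels are given after subtraction of the array's own 75th percentile over gene probes, so 0 is the level of that percentile, and levels of different probes are not compared with each other. Where 3 values of a group are listed, they are replicates 1, 2 and 3 in that order, RG@M-γ-CD before PBS.

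The 9 tested Cyp2c genes lie together in 1 locus, and their sequences come first because some of them are near copies. Each window below is the stretch of that gene's RefSeq promoter (250 bases before to 50 after the start site, GRCm38) that best matches CAAAGTCCA, a form of the site of HNF4, a nuclear receptor of gut and liver epithelium. Capitals mark the 9 bases aligned to that motif, and each window is written 5′ to 3′ on the strand of the gene.
Cyp2c55 promoter, chr19:39006889-39006933, plus strand: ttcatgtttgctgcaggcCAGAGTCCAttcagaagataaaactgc
Cyp2c65 promoter, chr19:39060872-39060916, plus strand: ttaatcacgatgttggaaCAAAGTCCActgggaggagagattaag
Cyp2c66 promoter, chr19:39113776-39113820, plus strand: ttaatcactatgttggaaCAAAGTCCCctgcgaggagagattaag
Cyp2c29 promoter, chr19:39286958-39287002, plus strand: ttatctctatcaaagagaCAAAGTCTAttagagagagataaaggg
Cyp2c38 promoter, chr19:39463160-39463204, minus strand: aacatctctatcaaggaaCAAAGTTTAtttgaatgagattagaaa
Cyp2c67 promoter, chr19:39649141-39649185, minus strand: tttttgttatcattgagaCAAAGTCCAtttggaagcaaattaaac
Cyp2c68 promoter, chr19:39741152-39741196, minus strand: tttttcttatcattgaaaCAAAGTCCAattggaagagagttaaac
Cyp2c40 promoter, chr19:39812833-39812877, minus strand: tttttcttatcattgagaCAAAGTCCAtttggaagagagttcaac
Cyp2c69 promoter, chr19:39886818-39886862, minus strand: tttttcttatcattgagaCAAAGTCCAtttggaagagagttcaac

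The exact motif stood in the promoters of Cyp2c65, Cyp2c67, Cyp2c68, Cyp2c40 and Cyp2c69, beginning at positions -116, -125, -77, -45 and -75 with the annotated start site as 0. Cyp2c55, Cyp2c66 and Cyp2c29 each differed from it at 1 of 9 bases and Cyp2c38 at 2. The promoters of Cyp2c40 and Cyp2c69 were identical at 267 of 270 aligned bases and those of Cyp2c40 and Cyp2c67 at 205 of 220, so the matches of these 3 genes are not separate sightings. The promoter of Cyp2c68 was identical to theirs at 67.5% to 75.8% of aligned bases and that of Cyp2c65 to the other 4 at 31.4% to 39.8%. Of all 32851 promoters 0.475% held CAAAGTCCA on either strand, and of the 84 promoters found for 74 P450 genes 11.9% did. Its other carriers were Cyp2c70, Cyp3a11, Cyp3a16, Cyp3a41a and Cyp8b1, none of which passed the filter on dim probes.

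Further motifs were searched on both strands of the same promoters, making 7 in all. GCGTG, the core bound by the aryl hydrocarbon receptor, was found in 32.4% of all promoters and 19% of P450 promoters, and its longer form TTGCGTGA in 0.222% and 0 of 84. The half-sites of nuclear receptors AGGTCA and GGGTCA were in 16.3% and 13.7% of all promoters and in 22 and 9 of the 84 P450 promoters. TGACCTTTG, which contains the reverse of AGGTCA, was in 0.478% of all and 4.76% of P450 promoters, and ATTGCATCA, a C/EBP-like site, in 0.192% and 0 of 84. These are matches of letters only.

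The probes set a limit to how finely the Cyp2c copies can be told apart. Those of Cyp2c67 (mm9, chr19:39683429-39683488, minus strand) and Cyp2c68 (mm9, chr19:39763420-39763479, minus strand) were identical at 55 of 59 aligned bases, and capitals mark the bases that differ or have no partner.
Cyp2c67 probe: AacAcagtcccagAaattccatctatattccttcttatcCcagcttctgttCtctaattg
Cyp2c68 probe: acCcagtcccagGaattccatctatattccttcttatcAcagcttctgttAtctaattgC

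The values of these 2 genes are therefore uncertain as separate measurements. Among the other pairs of member probes, only those of Cyp3a25 and Cyp3a57 (49 of 52 bases) and 2 probes of Cyp4f18 itself (56 of 59) were as close as 42 identical bases. This compares probes with probes only. Whether the probe of any Cyp2c gene also bound transcripts of another was not tested.

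Detection differed between the P450 families. The best probe was well above background on all 6 arrays for 43 of the 101 genes, on 1 to 5 arrays for 11 and on none for 47. By probes, 50 of 135 passed on all 6 arrays and 67 on none. A gene was tested when 1 of its probes passed this mark on 3 of 3 arrays in either group, and 45 P450 genes were, or 44.6% of them, against 51.1% of all gene names on the array. Of the 45, 43 passed in both groups. Cyp2e1 passed through RG@M-γ-CD alone, with 2 of 3 PBS arrays above background, and Cyp2c38 through PBS alone, with 2 of 3 RG@M-γ-CD arrays above background.

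**Figure D1:**
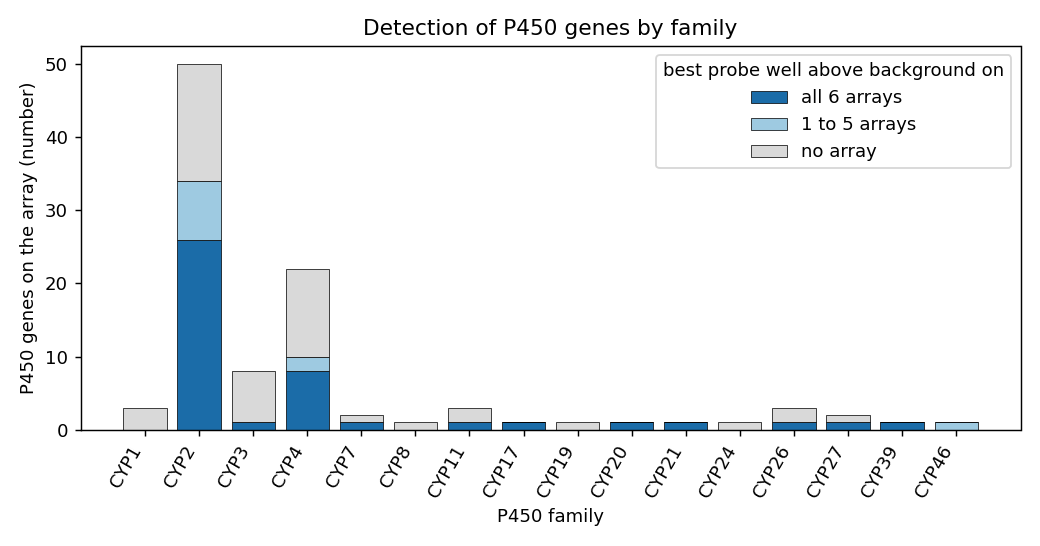
Number of P450 genes (vertical axis) in each family (horizontal axis), stacked by the number of arrays on which the gene's best probe was well above background. Family 2 holds 26 of the 43 genes detected on all 6 arrays and family 4 holds 8, while families 1, 8, 19, 24 and 46 have none.

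Family 1, the enzymes induced through the aryl hydrocarbon receptor, was not detected. The single probes of Cyp1a1, Cyp1a2 and Cyp1b1 were well above background on 0 of 6 arrays. Several P450 genes known from liver were not above background either, while others, such as Cyp2c29 and Cyp27a1, were detected on all 6 arrays. Cyp7a1, the rate-limiting enzyme of bile acid synthesis, and Cyp8b1, which sets the balance of bile acids, were above background on 0 of 6 arrays, as were Cyp3a11 and Cyp3a25, the main drug-oxidizing forms of mouse liver, and Cyp4a10, a fatty acid hydroxylase induced through PPARα. Of family 3, 7 of 8 genes were on no array, and Cyp3a13, a form known from the intestine, was detected on all 6.

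In family 2, 26 of 50 genes were on all 6 arrays, among them 8 of the 16 Cyp2c genes and 7 of the 10 Cyp2d genes, while of the 4 Cyp2a genes 3 were on none. In family 4, 8 of 22 genes were on all 6 arrays. These were 7 of the 10 Cyp4f genes, the pseudogene Cyp4f41-ps among them, and Cyp4v3, a fatty acid hydroxylase. Cyp4f enzymes hydroxylate leukotrienes and other eicosanoids. None of the 7 Cyp4a genes passed. Cyp4x1 was on 0 arrays, and the probe named Cyp4x1os, which reads a transcript of the opposite strand and not an enzyme, also on 0. Cyp4b1 was above background on 2 RG@M-γ-CD arrays and 0 PBS arrays, with log2 levels of -6.68, -2.72 and -3.90 in RG@M-γ-CD and -5.51, -4.39 and -6.75 in PBS. The groups overlapped, and the mean of the brighter group lay below the level at which a probe counts as above background, so no fold is given. Cyp2w1, an enzyme described in colon tumors, had its better probe above background on 1 RG@M-γ-CD and 2 PBS arrays.

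The genes of hormones and vitamins were detected in part. Cyp17a1, Cyp21a1 and Cyp11a1, which make steroid hormones, were on all 6 arrays, and Cyp11b1, Cyp11b2 and the aromatase gene Cyp19a1 on none. Cyp24a1, which breaks down active vitamin D, and Cyp27b1, which makes it, were on none. Cyp2r1, the vitamin D 25-hydroxylase, and Cyp27a1, a sterol hydroxylase of mitochondria, were on all 6. Of the enzymes that clear retinoic acid, Cyp26b1 was detected on all 6 arrays and Cyp26a1 and Cyp26c1 on none. The oxysterol hydroxylases Cyp7b1 and Cyp39a1 and the orphan Cyp20a1 were on all 6, and Cyp46a1, the cholesterol hydroxylase of brain, on 1 array of each group.

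In some detected genes the probes disagreed. Cyp11a1 was detected by a probe designed to a cDNA clone (mm9, chr9:57854517-57854576, plus strand), at mean log2 levels of 0.60 (RG@M-γ-CD) and 0.82 (PBS). Its probe to the RefSeq mRNA (mm9, chr9:57874074-57874544, plus strand), whose 60 bases span 471 bases of genome, read -6.62 and -6.59 and was above background on 0 of 6 arrays. The sequences of these 2 probes are given because the detection of this steroid gene rests on the first.
Cyp11a1 clone probe: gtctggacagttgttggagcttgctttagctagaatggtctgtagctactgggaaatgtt
Cyp11a1 mRNA probe: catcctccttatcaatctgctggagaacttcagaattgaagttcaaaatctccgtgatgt

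Cyp21a1 had 1 of 2 probes above background on all 6 arrays and the other on none, and Cyp2e1, Cyp2s1 and Cyp2j9 also rested on 1 of 2. Cyp2j13 rested on 1 of 4, the others being above background on no array. Cyp2u1, a fatty acid hydroxylase, read about the same on every array, from 5.84 to 6.21, with its brightest probe (mm9, chr3:130996343-130996402, minus strand), while its 2 other probes averaged between -5.01 and -4.38. Capitals mark an alternation of T and G over 31 of the 60 bases of that bright probe.
Cyp2u1 probe: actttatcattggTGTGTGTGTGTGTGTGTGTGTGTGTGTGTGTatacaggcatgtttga

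It was the only one of the 135 member probes with such a repeat of 20 or more bases. Whether its signal came from Cyp2u1 transcripts was not tested. In 7 genes with more than 1 tested probe, the direction of the group difference was the same for all probes of Cyp2c55, Cyp2d26, Cyp2j6 and Cyp4f18 and not for those of Cyp4f16, Cyp7b1 and Cyp20a1.

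No P450 gene passed the test for a difference between RG@M-γ-CD and PBS. In the limma fit over 19090 genes, 0 of the 45 P450 genes were below an adjusted p of 0.05 (0% of all genes), 0 below an unadjusted p of 0.05 (2.19% of all genes), and 0 had arrays that did not overlap between the groups (4.57% of all genes). The smallest unadjusted p among them was 0.058, for Cyp2t4, and the smallest adjusted p was 0.99998. The mean was higher in RG@M-γ-CD for 34 of the 45 genes (75.6%, against 47.2% of all genes), and the median log2 difference was 0.15, against -0.01 over all genes. Among the 43 genes above background on all 6 arrays the share was 76.7% and the median 0.15. The P450 genes share locus, sequence and cells, so the 34 are not independent, and the share fell to 57.8% without the second RG@M-γ-CD array, to 58.7% without the third and to 58.7% without PBS replicate 1.

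**Figure D2:**
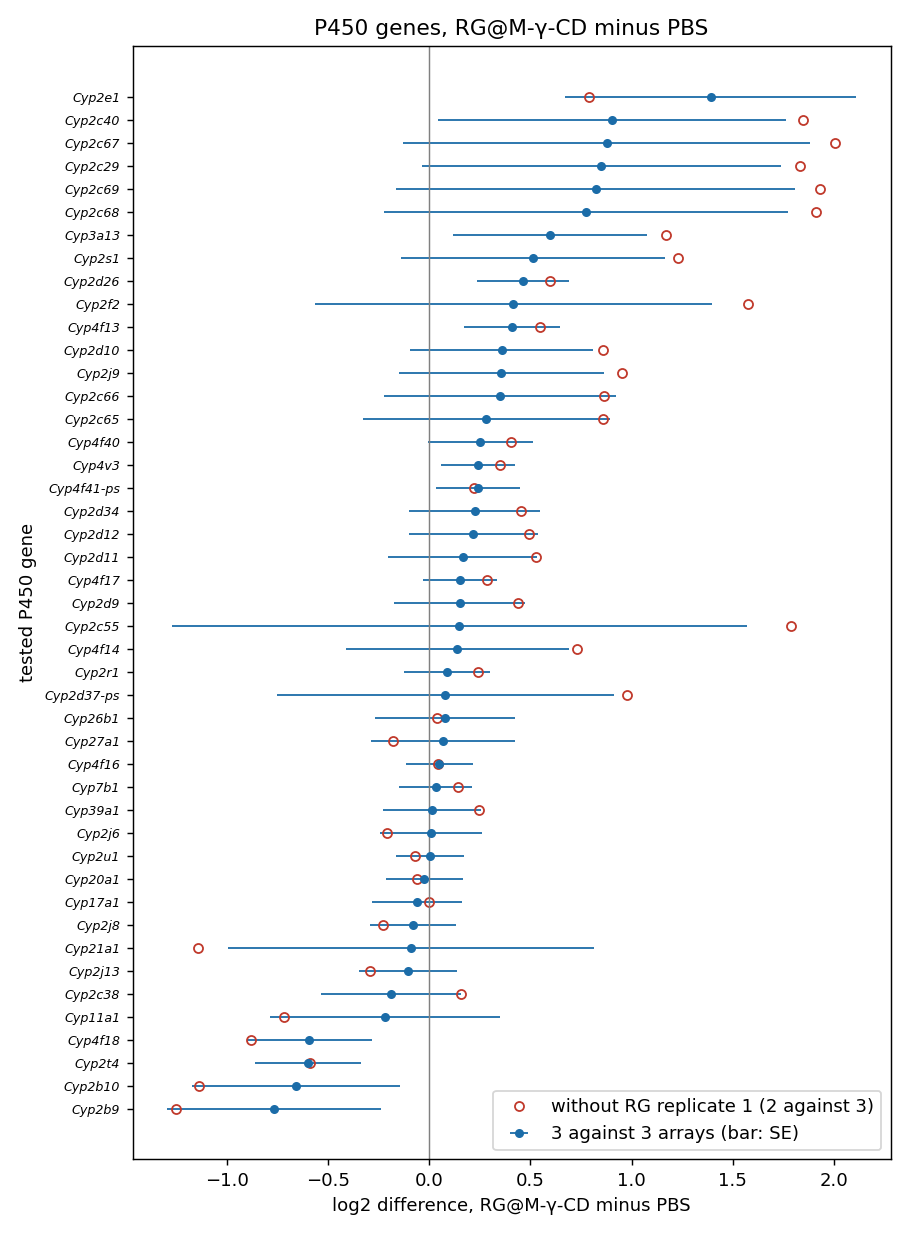
Log2 difference, RG@M-γ-CD minus PBS (horizontal axis), of the 45 tested P450 genes (vertical axis); filled points are 3 against 3 arrays with the standard error, and open circles leave out RG@M-γ-CD replicate 1. Most filled points lie right of 0 with bars that are long against the difference, and the open circles of Cyp2c29, Cyp2c40, Cyp2c67, Cyp2c68 and Cyp2c69 lie near 2.

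The largest differences above 0 were those of Cyp2e1, Cyp2c40, Cyp2c67, Cyp2c29 and Cyp2c69. Cyp2e1, which oxidizes ethanol and small molecules and also activates AOM, read -1.55, -2.58 and -4.12 against -3.60, -3.68 and -5.14 in PBS. RG@M-γ-CD replicates 1 and 2 were above all PBS arrays, replicate 3 was below 2 of them, and PBS replicate 3 was the lowest and not well above background. The gene was tested only because it passed in RG@M-γ-CD, where it read higher, so its log2 difference of 1.39 is a description. It was 0.56 after normexp background correction and 2.08 without RG@M-γ-CD replicate 3. With the slide row as a block, which sets RG@M-γ-CD against PBS replicate 1 alone, it was 0.85.

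Cyp2c29, an epoxygenase of arachidonic acid, read 0.13, 3.05 and 3.08 in RG@M-γ-CD and 1.35, 2.09 and 0.27 in PBS, a log2 difference of 0.85 (SE 0.89). Cyp2c40 read -0.83, 2.04 and 1.97 in RG@M-γ-CD and 0.44, 0.88 and -0.85 in PBS, a log2 difference of 0.90 (SE 0.86). Cyp2c69 read -0.25, 3.03 and 3.14 against 1.33, 2.0 and 0.12 in PBS, a log2 difference of 0.82 (SE 0.98). Their neighbors in the locus had the same shape. Cyp2c67 read -0.88, 2.44 and 2.59 in RG@M-γ-CD and 0.69, 1.39 and -0.55 in PBS, and Cyp2c68 read 0.21, 3.65 and 3.60 and 1.98, 2.47 and 0.69. In all 5 genes RG@M-γ-CD replicates 2 and 3 were the highest arrays and PBS replicate 2 the next, and RG@M-γ-CD replicate 1 and PBS replicate 3 were the lowest pair. The treated group thus held both the highest arrays and 1 of the lowest. These 5 genes may not be separate measurements.

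Cyp2c55, which makes a hydroxylated arachidonic acid in colon, had the widest spread of all 45 genes. It read -0.78, 3.46 and 4.81 in RG@M-γ-CD and 1.53, 3.59 and 1.92 in PBS, a range of 5.59 on the log2 scale. Its log2 difference was 0.15 (SE 1.42), and its second probe gave 0.26. Cyp2c65 read -0.64, 0.46 and 1.73 against -0.40, 0.58 and 0.54 in PBS, with a log2 difference of 0.28 (SE 0.61). Over the 9 tested Cyp2c genes 8 means were higher in RG@M-γ-CD, with a median log2 difference of 0.77. Cyp2c38, the exception, was tested only because it passed in PBS, and its value in RG@M-γ-CD replicate 1 was not well above background.

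**Figure D3:**
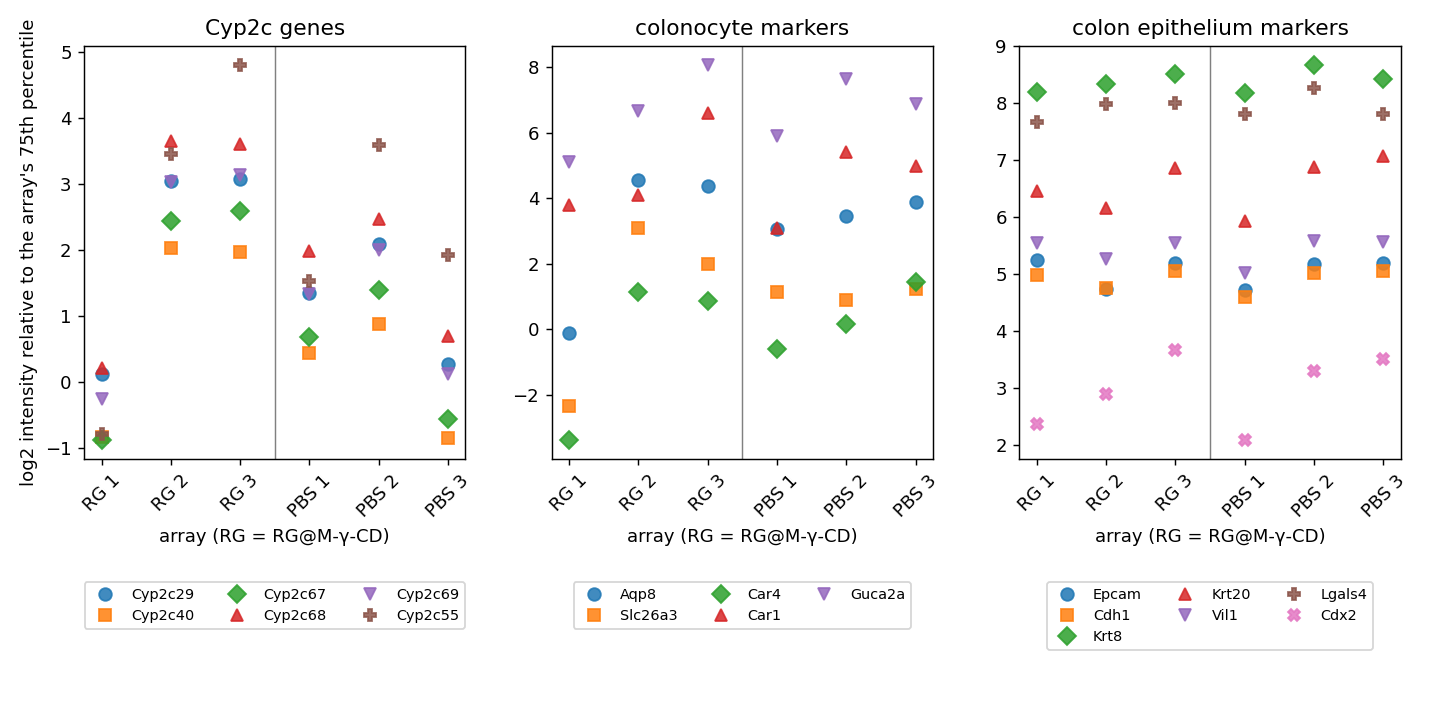
Log2 level relative to the array's 75th percentile (vertical axes, which differ between panels) on each of the 6 arrays (horizontal axis) for 6 Cyp2c genes, 5 colonocyte markers and 7 colon epithelium markers. The Cyp2c genes and Aqp8, Slc26a3 and Car4 are low in RG@M-γ-CD replicate 1, the Cyp2c genes other than Cyp2c55 are also low in PBS replicate 3 where those markers are not, and the epithelium markers apart from Cdx2 and Krt20 move by less than 1.

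The colonocyte markers moved with the Cyp2c genes on some arrays and not on others. Slc26a3, the chloride exchanger of the colon surface, read -2.36 in RG@M-γ-CD replicate 1 and 3.09 and 2.01 in replicates 2 and 3, and Car4, a carbonic anhydrase, read -3.39, 1.15 and 0.85. Car1 went otherwise, at 3.81, 4.09 and 6.60 against 3.10, 5.42 and 4.98 in PBS, with PBS replicate 1 the lowest. Guca2a read 5.11, 6.67 and 8.08 against 5.90, 7.63 and 6.87 in PBS. In both, RG@M-γ-CD replicate 2 lay below PBS replicates 2 and 3. In PBS replicate 3, where Cyp2c29, Cyp2c40, Cyp2c67, Cyp2c68 and Cyp2c69 were low, Aqp8 read 3.89 and Car4 1.46, the highest values of these markers in PBS. The smooth muscle markers Myh11 and Des were lowest in RG@M-γ-CD replicate 1 and highest in replicates 2 and 3 as well. The part of either cell type in the Cyp2c levels was not tested. Of small intestine markers Sis, Apoa4 and Alpi were not tested for want of signal. Of 5 liver markers Apoa1 and Fgb were not either, while Alb, Ttr and Ahsg were.

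The largest differences below 0 were those of Cyp2b9, Cyp2b10, Cyp2t4, Cyp4f18 and Cyp11a1. Cyp2b10, the classical target of the receptor CAR, read 1.11, -0.48 and -0.19 in RG@M-γ-CD and 1.59, 0.56 and 0.26 in PBS. Cyp2b9, its neighbor in family and chromosome, read -0.49, -2.12 and -1.77 in RG@M-γ-CD and 0.13, -0.95 and -1.26 in PBS. In both genes RG@M-γ-CD replicates 2 and 3 were the lowest arrays and PBS replicate 1 the highest, and RG@M-γ-CD replicate 1 lay among the PBS arrays. The log2 differences were -0.66 (SE 0.51) and -0.77 (SE 0.53). Cyp2t4 read -2.59, -2.71 and -2.43 against -2.52, -1.70 and -1.71 in PBS, where PBS replicate 1 overlapped the treated arrays, with a log2 difference of -0.60 (SE 0.26).

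Cyp4f18, which is known from leukocytes and inactivates leukotriene B4, read 1.20, 0.24 and 0.43 in RG@M-γ-CD and 1.60, 1.11 and 0.94 in PBS, a log2 difference of -0.59 (SE 0.31). Its 2 other probes gave -0.49 and -0.48. Macrophage markers followed a like order. Csf1r read 3.25, 2.08 and 2.17 in RG@M-γ-CD and 3.31, 2.99 and 3.14 in PBS, and the summed level of 4 such markers was 17.1, 7.26 and 7.57 against 12.8 to 15.8. Of the neutrophil markers, S100a8 was at 3.24, -2.24 and -0.80 against 1.33 to 3.56, S100a9 at 5.73, 0.95 and 2.02 against 4.07 to 5.06, and Retnlg at 0.00, -4.57 and -4.11 against -2.70 to -1.16, with replicate 2 not well above background. Replicates 2 and 3 of RG@M-γ-CD were below every PBS array in these 3 markers, while Csf3r read 5.02, 6.25 and 5.30 against 5.18 to 6.01. The part of these cells in the Cyp4f18 level was not tested.

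Among the other enzymes of foreign compounds, Cyp3a13 read -0.09, 1.79 and 1.45 against 0.36, 0.60 and 0.40 in PBS, so that replicates 2 and 3 were above and replicate 1 below every PBS array. Cyp2s1, a form of surface epithelia, read 2.23, 4.57 and 4.2 in RG@M-γ-CD and 3.23, 3.74 and 2.5 in PBS, in the same manner. Their log2 differences were 0.60 (SE 0.48) and 0.51 (SE 0.65). Cyp2d26 was steadier by its brightest probe, at 1.87, 2.42 and 2.12 in RG@M-γ-CD and 1.56, 2.01 and 1.45 in PBS. Its log2 difference of 0.46 (SE 0.23, limma, unadjusted p = 0.084) kept its sign under every alternative run. Its second probe was less steady, at 0.60, 1.89 and 1.15 against 1.09, 1.01 and 0.79 in PBS, with RG@M-γ-CD replicate 1 below every PBS array. All 7 tested Cyp2d genes, the pseudogene Cyp2d37-ps included, had higher means in RG@M-γ-CD, with log2 differences from 0.08 to 0.46. In each of them RG@M-γ-CD replicate 2 was the highest array. In all but Cyp2d26 and Cyp2d34 replicate 1 was the lowest array, so the higher means do not show a rise on every treated array.

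No fatty acid or eicosanoid enzyme passed the test either. The log2 differences were 0.14 (SE 0.55) for Cyp4f14, 0.05 (SE 0.17) for Cyp4f16, 0.24 (SE 0.18) for Cyp4v3 and 0.01 (SE 0.25) for Cyp2j6, an epoxygenase. With 3 arrays a group, these values do not show that the levels were alike. Cyp2u1 was at 0.00 (SE 0.17) with the probe described above. The median over the 8 tested genes of family 4 was 0.20, with 7 of 8 means higher in RG@M-γ-CD.

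Of the steroid enzymes, Cyp21a1 and Cyp11a1 were highest in RG@M-γ-CD replicate 1, where the Cyp2c genes were low. In PBS replicate 3, where Cyp2c29, Cyp2c40, Cyp2c67, Cyp2c68 and Cyp2c69 were low too, they read 0.59 and 0.95. Cyp21a1, the steroid 21-hydroxylase, read 3.0, -0.39 and 0.07 against 0.54, 1.82 and 0.59 in PBS, with RG@M-γ-CD replicate 1 the highest and replicates 2 and 3 the lowest, a log2 difference of -0.09 (SE 0.91). Cyp11a1, the first enzyme of steroid synthesis, read 1.60, -0.64 and 0.84 in RG@M-γ-CD and 0.34, 1.17 and 0.95 in PBS by its clone probe, with a log2 difference of -0.22 (SE 0.57). Nr5a2, the nuclear receptor that drives steroid synthesis in gut epithelium, went the other way, at -1.19, 2.19 and 1.24 against 0.49, 1.16 and 0.58. Cyp17a1 moved less, at -0.05, 0.00 and 0.26 against -0.26, 0.43 and 0.23.

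For the sterol, retinoid and vitamin D enzymes and the orphan Cyp20a1 the log2 differences lay near 0 and within 1 standard error. They were 0.07 (SE 0.36) for Cyp27a1, 0.08 (SE 0.35) for Cyp26b1, 0.09 (SE 0.21) for Cyp2r1, 0.03 (SE 0.18) for Cyp7b1, 0.01 (SE 0.24) for Cyp39a1 and -0.03 (SE 0.19) for Cyp20a1. Vdr, the vitamin D receptor, read 1.24, 3.41 and 2.46 in RG@M-γ-CD and 2.20, 2.32 and 1.67 in PBS, again lowest in RG@M-γ-CD replicate 1.

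**Figure D4:**
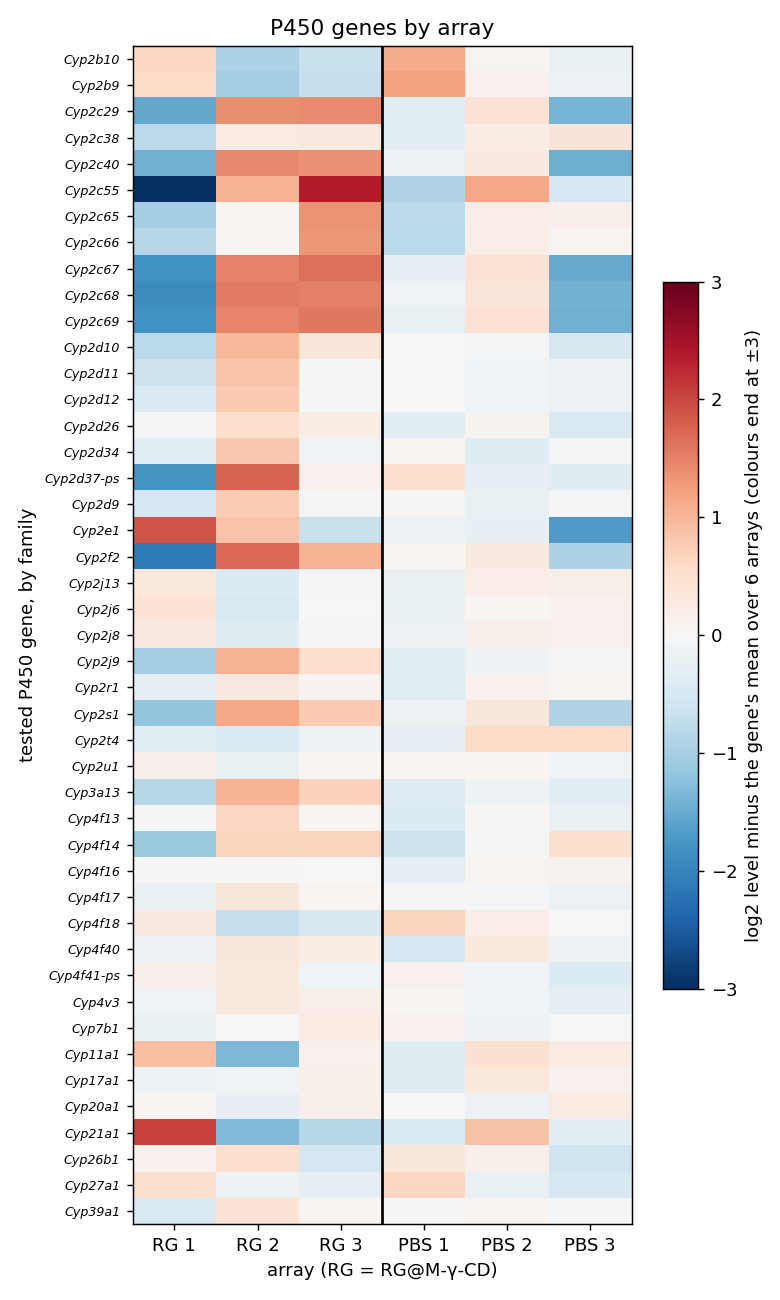
Log2 level minus the gene's own mean over the 6 arrays (color) for the 45 tested P450 genes (rows, by family) on each array (columns; the line divides RG@M-γ-CD from PBS). RG@M-γ-CD replicate 1 is blue and replicates 2 and 3 red for most Cyp2c genes, Cyp2f2, Cyp2s1 and Cyp3a13. Cyp21a1, Cyp2b9 and Cyp2b10 run the opposite way, as do the Cyp2j genes other than Cyp2j9 in replicates 1 and 2.

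P450 levels spread more between mice of a group than most genes did. The median range over the 6 arrays was 1.26 on the log2 scale for the 45 P450 genes and 0.72 for all genes tested, and 17 of 45 (37.8%) had a range over 2, against 9.57% of all genes. The median SD was 0.63 against 0.30 within RG@M-γ-CD and 0.35 against 0.21 within PBS, so the wider spread also appeared in the PBS group. Without RG@M-γ-CD replicate 1 the median ranges were 1.13 and 0.64. RG@M-γ-CD replicate 1 was the lowest array for 21 of 45 P450 genes (46.7%, against 18.8% of all genes), and RG@M-γ-CD replicate 2 the highest for 21 (46.7%, against 20.6%). These shares describe genes that share cells and sequence.

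The median difference and the counts of P450 genes at an unadjusted p below 0.05 or without overlap moved most when RG@M-γ-CD replicate 1 was left out, while the share with higher means, 75% without it, moved more without RG@M-γ-CD replicate 2 or 3 or PBS replicate 1. With 2 against 3 arrays, 48 P450 genes were tested, and 0 passed an adjusted p of 0.05 in limma, where 1.04% of all genes did. An unadjusted p below 0.05 was reached by 18 of 48 (37.5%, against 12.5% of all genes), 14 with higher and 4 with lower levels in RG@M-γ-CD, and 22 of 48 (45.8%, against 25.9% of all genes) had arrays that did not overlap. The array was singled out after its values were known, so these counts are a description of the other 5 arrays. Leaving it out also let genes pass the filter on RG@M-γ-CD replicates 2 and 3 alone. Cyp4b1 (log2 difference 2.24) and Cyp2d22 (1.53) entered in this way, through the group where they read higher. Both are among the 14 and the 22. The smallest adjusted p was 0.062, for Cyp3a13, with a log2 difference of 1.17. The log2 differences without it were 1.83 for Cyp2c29, 1.85 for Cyp2c40, 2.01 for Cyp2c67, 1.91 for Cyp2c68, 1.93 for Cyp2c69, 1.57 for Cyp2f2 and 1.23 for Cyp2s1. The 4 genes below were Cyp2b9 at -1.25, Cyp2b10 at -1.14, Cyp21a1 at -1.14 and Cyp4f18 at -0.88. Over the 48 genes the median was 0.44, against -0.03 over all genes tested.

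In the other arrangement of the arrays, RG@M-γ-CD replicates 2 and 3 with PBS replicate 1 against RG@M-γ-CD replicate 1 with PBS replicates 2 and 3, 15 of 47 P450 genes (31.9%, against 25.5% of all genes) did not overlap. Of the 15, Cyp2d13 had not passed the filter by the labels. It entered through the first set, where it read higher by 1.93 on the log2 scale. No test was run, since the study's clustering that gives this arrangement rests on values of the same arrays. As a description, the log2 difference of the first set minus the second was 1.67 for Cyp2c29, 1.75 for Cyp2c40, 1.92 for Cyp2c67, 1.96 for Cyp2c68 and 1.87 for Cyp2c69, each above its difference by the labels. It was -1.73 for Cyp21a1 and -1.06 for Cyp11a1, each below its difference by the labels, and 0.024 for Cyp2e1.

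None of the tested partners and regulators of the P450 enzymes passed the adjusted threshold. Of 43 genes for electron supply, receptors, heme and epoxide hydrolases 42 were tested, 25 with higher and 17 with lower means in RG@M-γ-CD, and 0 passed an adjusted p of 0.05. Their median log2 difference was 0.05. Por, the electron donor of the microsomal enzymes, read 4.80, 3.83 and 4.37 against 3.87, 4.40 and 4.21 in PBS, a log2 difference of 0.17 (SE 0.28). Alas1, which starts heme synthesis, was at -0.06 (SE 0.18).

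Of the receptors, the aryl hydrocarbon receptor gene Ahr was at -0.20 (SE 0.26) and its target Tiparp at 0.01 (SE 0.16). The repressor and target Ahrr was well above background on 1 RG@M-γ-CD array and 3 PBS arrays, and read -5.43, -4.19 and -3.05 against -4.30, -3.84 and -3.69. The drug sensors Nr1i2 (PXR) and Nr1i3 (CAR) were at 0.27 (SE 0.26) and 0.12 (SE 0.72). Hnf4a, whose product binds the motif printed in capitals above, read 6.09, 6.31 and 6.45 in RG@M-γ-CD and 5.77, 6.36 and 6.10 in PBS, a log2 difference of 0.21 (SE 0.21). Its part in the Cyp2c levels was not tested.

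An unadjusted p below 0.05 was reached by 2 of the 42, where 2.19% of all genes reached it, and 3 of the 42 did not overlap, against 4.57% of all genes. Hmox1, which breaks heme down, read 1.47, 0.39 and 1.19 in RG@M-γ-CD and 2.15, 1.77 and 1.81 in PBS, a log2 difference of -0.89 (SE 0.30, limma, unadjusted p = 0.024). Ephx1, the microsomal epoxide hydrolase that acts on products of P450 enzymes, read 3.69, 3.31 and 3.35 against 3.71, 4.15 and 4.14 in PBS, a log2 difference of -0.55 (SE 0.20, limma, unadjusted p = 0.031). Pgrmc2, a heme-binding relative of Pgrmc1, was the third without overlap. It read 0.59, 0.52 and 0.74 in RG@M-γ-CD and 0.39, 0.37 and 0.40 in PBS, a log2 difference of 0.23 (SE 0.14). In Hmox1 and Ephx1 every PBS array was above every RG@M-γ-CD array, by a margin of 0.02 for Ephx1, and neither passed the adjusted threshold.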

How the data were processed

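RNA from colon tissue with tumors was labeled with Cy3 and hybridized to 1-color Agilent arrays. The authors deposited, per array, the scanner output of Agilent Feature Extraction 10.7.1.1 (version from the submitters' processing notes), in which each spot has a background-corrected intensity with no scaling from array to array. Spot marks for signal well above background, outliers and saturation, of no unit, are other columns deposited in the same output. The authors also deposited a table of log2 values per probe whose scale was set by quantile normalization as far as its columns show, and it served as an alternative. Across probes its columns correlated with their own arrays at r = 0.9991 or more.

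Computation used R 4.3.3. Control spots and 790 outlier spots were dropped. No saturation was marked (0 gene spots). Spots of a probe were averaged as log2 values, and the 75th percentile of gene probes was subtracted on each array. Of 135 member probes 120 were matched to a RefSeq symbol through their accession, and the probes named Cyp2c44 match the symbol Cyp2c23. Genes entered with their brightest probe among those above background on 3 of 3 arrays in either group and were tested with limma 3.58.1 (lmFit and eBayes) over all 19090 genes, Benjamini-Hochberg adjustment and a threshold of 0.05. Arrays hold no read depth, so the 3 arrays per group and the signal over background limit the precision. The fit was tested on simulated data. All arrays were on 1 slide and in 1 scan. RG@M-γ-CD replicates 1 to 3 and PBS replicate 1 lay in the first row and PBS replicates 2 and 3 in the second. A block for the row therefore sets the RG@M-γ-CD arrays against PBS replicate 1 alone.

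Probe coordinates are those of the array design (mm9), for which no annotation was used, so exons are not given. Promoters are from RefSeq (GRCm38.p6). Groups were taken from the treatment label. The members and gene lists were chosen with earlier results of these data known. Genes named with values were those at an unadjusted p below 0.05 or with groups that did not overlap, the 5 largest differences each way, and a list by role. Other P450 genes and receptors that are named to describe the spread, and the motifs and probes shown, were chosen after their values were seen. Alternatives were the deposited table, quantile normalization, normexp correction (offset 50), averaging a gene's probes, keeping outlier spots, no filter or a filter on all 6 arrays, replicate number or slide row as a block, the methods' t-test (fold change of 2 and p of 0.05), the other arrangement of the arrays, and leaving out each array.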

Additional observations from a re-analysis of the deposited data

How the results depend on the processing

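Without any 1 array the count of P450 genes at an adjusted p below 0.05 (limma) stayed 0, as it did under every other alternative tested, the methods' t-test included, where 0 passed at its own fold change and p and 0 after adjustment. Leaving out 1 array in turn moved the count at an unadjusted p below 0.05 from 0 to 18, the count without overlap from 0 to 22, the median log2 difference from 0.062 to 0.44 and the share with higher means from 57.8% to 75%. The 18 and the 22 came without RG@M-γ-CD replicate 1, and without each of the other arrays at most 1 gene passed and at most 3 did not overlap. With no filter on dim probes 101 genes entered, of which 1, the pseudogene Cyp4b1-ps2 (0.82), passed the unadjusted p and 1 did not overlap. The labels do not say whether the replicate numbers pair the arrays. Deviations of same-numbered arrays correlated at -0.25, -0.23 and 0.14, which cannot decide it with 3 arrays a group. With the replicate block 4 P450 genes (Cyp2b9, Cyp2b10, Cyp2e1 and Cyp4f18) had an unadjusted p below 0.05, each with an adjusted p of 0.99998 (limma). Cyp2e1 was tested only through RG@M-γ-CD, where it read higher. The share of all genes was not counted with the replicate block, with no filter or without the other arrays, so those counts are a description only. In the other arrangement of the arrays 15 genes did not overlap and the median of partners and regulators was -0.17. With the slide row as a block, so against PBS replicate 1 alone, that median was 0.21.

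Many single differences near 0 changed sign, and for these the cause was not tested. With the mean of a gene's probes Cyp7b1 was at -0.26 and Cyp20a1 at 0.035. The slide row as a block compares the RG@M-γ-CD arrays with PBS replicate 1 alone, the only PBS array in their row. In that run Cyp11a1 was at 0.26, Cyp2u1 at -0.051, Cyp7b1 at -0.12, Cyp17a1 at 0.33, Cyp20a1 at 0.0012, Cyp21a1 at 0.36, Cyp26b1 at -0.29, Cyp27a1 at -0.58, Ahrr at 0.080, Nr1i3 at -0.10 and Alas1 at 0.17. In the other arrangement Cyp2j6 was at -0.41, Cyp2u1 at -0.064, Cyp4f16 at -0.16, Por at -0.44, Tiparp at -0.091 and Hnf4a at -0.0036. Leaving out 1 array in turn moved Cyp2c55 from -1.01 to 1.79, Cyp21a1 from -1.14 to 0.55, Cyp11a1 from -0.72 to 0.40, Cyp2c65 from -0.32 to 0.86, Cyp4f14 from -0.16 to 0.73, Cyp2j6 from -0.21 to 0.23, Cyp2r1 from -0.048 to 0.24, Cyp2u1 from -0.073 to 0.11, Cyp39a1 from -0.19 to 0.25 and Cyp4f16 from -0.073 to 0.12. It moved Cyp7b1 from -0.086 to 0.14, Cyp17a1 from -0.26 to 0.085, Cyp20a1 from -0.12 to 0.091, Cyp26b1 from -0.20 to 0.35, Cyp27a1 from -0.18 to 0.39, Ahrr from -0.86 to 0.33, Alas1 from -0.17 to 0.022, Nr1i3 from -0.77 to 0.58, Por from -0.060 to 0.42, Tiparp from -0.078 to 0.12 and Vdr from -0.21 to 0.88. Of 621 values of single genes under alternatives, 556 kept their direction. Low signal limits Cyp2e1, Cyp2c38 and Ahrr, which were not well above background on every array.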

Other observations

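The remaining marker lists moved as follows, as summed linear levels. The 4 stroma markers ran from 61.6 to 112 in RG@M-γ-CD and from 85.4 to 90.5 in PBS, and the 4 neutrophil markers, whose sum is mostly Csf3r on RG@M-γ-CD replicate 2, from 44.1 to 96.2 and from 55.9 to 101. Of 4 adipocyte markers 2 were tested, from 0.83 to 0.93 and from 0.35 to 0.70. Of 5 liver markers 3 were tested, from 5.18 to 13 and from 5.02 to 10.3. Of 5 exocrine pancreas markers Prss2 and Cel were tested, from 0.054 to 0.077 in RG@M-γ-CD and from 0.14 to 1.28 in PBS, and Prss2, a trypsinogen, was well above background on 3 of 3 PBS arrays and 0 of 3 RG@M-γ-CD arrays. Its mean in PBS was at least 3.43-fold higher, a bound set by the lowest signal well above background on each RG@M-γ-CD array, with an adjusted p of 0.99998 in limma. The PBS arrays read -3.05, -0.28 and -4.34 on the log2 scale, so the bound rests mostly on PBS replicate 2 and does not hold for each array. Prss2 was tested only through PBS, where it read higher, so the bound is a description. Fabp6, the 1 tested marker of 4 for small intestine, read -1.11, 1.29 and 0.28 in RG@M-γ-CD and 0.42, 0.29 and 0.02 in PBS on the log2 scale.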
